A study of Homo sapiens with 6 samples.

Results

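The p53 feedback loop was examined through 5 genes, MDM2, MDM4, PPM1D, CCNG1 and RPS27L, taken by their symbols from a table of 24054 genes. All 5 were present and passed the filter on low counts. RNA sequencing covered A2780, an established line of human ovarian cancer cells whose genotype is labelled as wild type, in 3 samples given the solvent DMSO and 3 given SCR-6920 at 1 µM, each for 48 h. The submitters describe SCR-6920 as inhibiting PRMT5, which methylates arginine residues symmetrically in histones, splicing factors and other proteins. All 6 samples came from this 1 line, grown in the same medium, and the labels do not say whether replicates were separate cultures, so each p-value measures a spread between samples that may be technical.

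The transcription factor p53 is held at a low level in unstressed cells because MDM2, a ubiquitin ligase that it switches on itself, binds it and marks it for degradation. MDM4, a relative of MDM2 with little ligase activity of its own, binds p53 and blocks its activation domain, and its splicing is known to depend on PRMT5. PPM1D encodes the phosphatase WIP1, which removes stress-induced phosphates from p53 and from the kinases that act on it. CCNG1 encodes cyclin G1, a p53 target that brings protein phosphatase 2A (PP2A) to MDM2. RPS27L encodes a ribosomal protein close to RPS27 that is a p53 target and binds MDM2. A2780 cells are generally used as a line with functional p53.

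Of the 5 genes MDM2 is the best-studied direct p53 target, and its p53-responsive promoter is internal to the gene. RefSeq promoter windows on GRCh38.p14, 250 bases before to 50 bases after an annotated start, matched all 5 symbols, with 9 windows in all. The internal MDM2 promoter lies on the plus strand at chr12:68808767-68809001, cut here before the first annotated exon that follows it. It is in the first intron of all 7 GENCODE transcripts that span it, and the other 27 of 34 annotated MDM2 transcripts start downstream of it. It is shown because it holds 2 matches to the p53 consensus, which are in capitals.
MDM2 internal promoter: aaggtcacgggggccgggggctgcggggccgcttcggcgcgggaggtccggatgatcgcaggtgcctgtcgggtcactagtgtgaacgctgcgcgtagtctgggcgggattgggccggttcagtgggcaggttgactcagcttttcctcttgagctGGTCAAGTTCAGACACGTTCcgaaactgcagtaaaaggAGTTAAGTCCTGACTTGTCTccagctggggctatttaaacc

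The search used the p53 consensus as 2 abutting half-sites of 10 bases with no spacer. That motif is its own reverse complement, so both strands are covered by 1 scan. The best match in each window is given by how many of its 20 bases match. The closest matches of 3 members are set side by side, with matching bases in capitals and mismatches in lower case.
MDM2 first site: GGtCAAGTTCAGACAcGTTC
MDM2 second site: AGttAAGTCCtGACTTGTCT
RPS27L site: GGcCTAGagCAGACAAGCCC
PPM1D site: AAGCAAaCTaGGAgATGCgC
The first MDM2 site, at chr12:68808923-68808942, matched 18 of 20 bases, which 0.649% of 35116 windows reached or passed. The second, at chr12:68808961-68808980, matched 17, and 0.313% of windows held at least 2 sites of 17 or more. The window of RPS27L held 1 site of 17 matches at chr15:63157527-63157546 on the minus strand, a score that 5.20% of windows reached. PPM1D had 16 matches at chr17:60599994-60600013 on the plus strand, against 26.0% of windows. The upstream MDM2 promoter and MDM4 had 15, a level that 70.5% of windows reach, and CCNG1 had 14, against 97.4%. These matches describe letters in short windows. The count treats all 20 bases alike. Known sites of a gene may lie elsewhere, and neither a match nor its absence shows whether p53 binds.

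**Figure D1:**
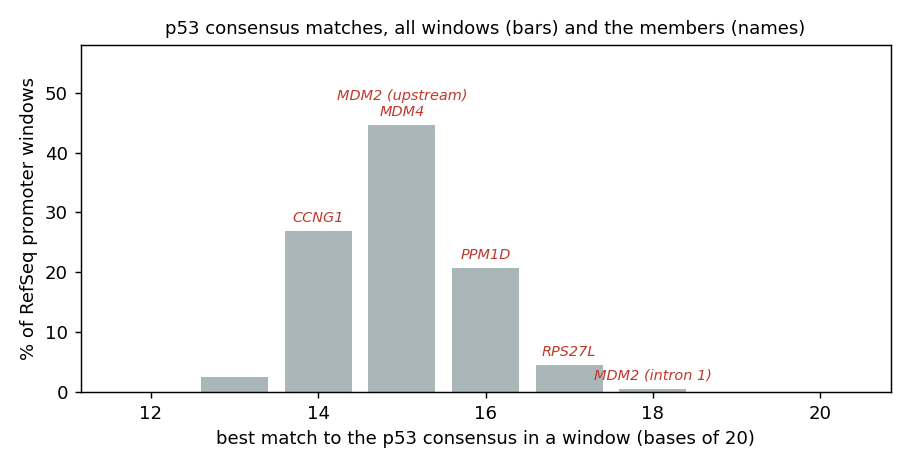
Share of 35116 RefSeq promoter windows (vertical axis, %) by the best match to the 20-base p53 consensus (horizontal axis, bases), with the members named above the bar of their score. The internal MDM2 promoter lies at 18 of 20 bases and CCNG1 at 14; overlapping windows of a gene with the same score share 1 name.

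Sequencing depth was even. Totals ran from 38149448 to 39749993 counts per sample, and the 5 genes had 2333 to 13896 counts in a sample, for a counting error of 0.848% to 2.07%. Of 11 listed markers of ovarian carcinoma and epithelium, 10 were in the table and 4 could be tested; PAX8 was at 0.00415 ± 0.0036 FPKM in DMSO samples (SD, n = 3) and KRT7 had no count, so these defining markers were absent or near it. The summed marker level was 3.17 to 3.72 FPKM in DMSO and 4.58 to 5.81 in SCR-6920 samples. Leukocyte markers (1 of 5 tested, PTPRC at 0) summed to 1.74 to 1.99 and 1.11 to 1.43 FPKM, endothelial markers (1 of 5 tested, VWF and CDH5 at 0) to 0.0688 to 0.143 and 0.202 to 0.262, and fibroblast markers (6 of 6 tested) to 67.5 to 70.4 and 74.6 to 75.8. Of the tested epithelial markers 2 rose, EPCAM by 1.78 ± 0.56 and KRT8 by 0.57 ± 0.23 on the log2 scale (SE), and none fell. EPCAM was near the floor, at 0.153 ± 0.12 FPKM in DMSO samples (SD, n = 3). Of all tested genes 20.6% rose and 21.3% fell. Of the fibroblast markers 3 rose and 1 fell. PDGFRA, at 55.1 FPKM in DMSO and 61.6 in treated samples, made up most of their sum and rose by 0.17, COL1A1 rose by 0.94 and COL1A2 by 0.33, and THY1 fell by 0.30. The leukocyte marker CD68 fell by 0.54, and the tested endothelial marker did not pass. Their part in the results was not tested. Values are shares of a library, so they show neither the number of cells nor the amount of RNA per cell.

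All 5 genes were higher after SCR-6920, RPS27L and MDM2 about as much as each other and the other 3 by less. By edgeR's quasi-likelihood test all 5 rose at an adjusted p under 0.05, against 20.6% of the 14233 tested genes that rose by the same rule. In all 5 the lowest treated sample lay above the highest DMSO sample, as it did for 24.9% of tested genes; groups were apart in either direction for 50.6%. The genes were chosen by function with earlier results of these data known, so the 2 counts describe them and are no independent evidence of direction.

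**Figure D2:**
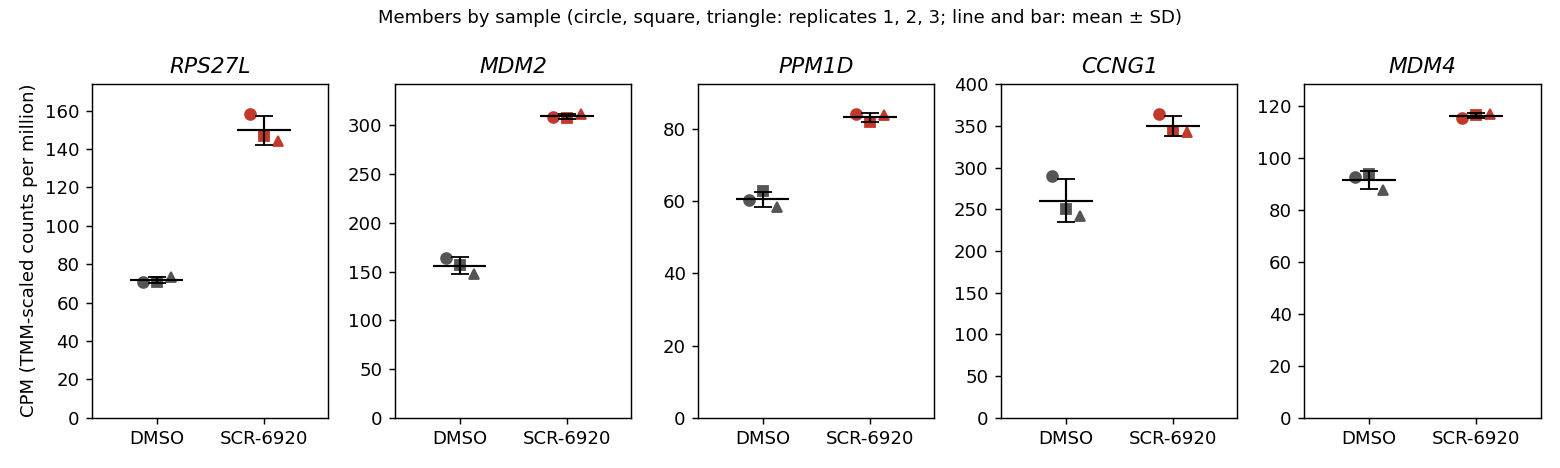
CPM on TMM-scaled libraries (vertical axis, from 0, a separate scale per gene) of the 5 genes in each DMSO and SCR-6920 sample, with mean and SD (n = 3). No panel shows an overlap of the groups; by ratio the groups come closest in CCNG1, where DMSO replicate 1 reached 289.6 CPM and the lowest treated sample 343.1.

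MDM2, the ubiquitin ligase, was at 164.3, 156.8 and 147.4 CPM (counts scaled to library size with TMM factors) in DMSO replicates 1 to 3. In SCR-6920 replicates 1 to 3 it was at 308.2, 307.8 and 311.8 CPM. The groups were far apart, with the lowest treated sample 1.87-fold above the highest control. MDM2 rose 1.98-fold, with a log2 change of 0.99 ± 0.03 (SE, 3 samples a group, adjusted p = 8.23e-21, edgeR), and ranked 310 among all rises. Its spread was 5.44% of the mean in DMSO samples and 0.703% in treated ones. The second of these is below the counting error of a single library of this gene, at least 0.917%.

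MDM4, the partner that blocks p53 without degrading it, changed least. It was at 92.7, 93.9 and 87.5 CPM in DMSO samples and at 115.1, 116.5 and 116.8 CPM in treated ones. No samples overlapped, with 21.3 CPM between the nearest. The rise was 1.27-fold (log2 0.35 ± 0.04 SE, adjusted p = 1.26e-08, edgeR). GENCODE lists 17 MDM4 transcripts, 12 of them coding. The counts are per gene, so they hold no value for the exon-skipped form that PRMT5 loss is known to raise, and a rise in the gene count says nothing of full-length MDM4.

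PPM1D, the phosphatase gene, was at 60.5, 62.7 and 58.5 CPM in DMSO samples. Treated samples were at 84.2, 81.9 and 83.8 CPM, all above every control. PPM1D rose 1.38-fold (log2 0.46 ± 0.04 SE, adjusted p = 5.21e-10, edgeR). Its SD was 2.1 CPM in DMSO and 1.26 CPM in treated samples, against a difference of means from 60.6 to 83.3 CPM.

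CCNG1, the cyclin that links PP2A to MDM2, was the least even of the 5 among controls. DMSO replicate 1 had 289.6 CPM, while replicates 2 and 3 had 249.8 and 241.4. The treated samples had 364.2, 343.5 and 343.1 CPM. DMSO replicate 1 thus stood closer to the treated samples than its fellow controls did, though below all of them. CCNG1 rose 1.35-fold (log2 0.43 ± 0.08 SE, adjusted p = 0.0102, edgeR), with the largest SE of the 5. Without DMSO replicate 1 the log2 change was 0.51 with an adjusted p of 2.46e-20. Over all left-out libraries it ran from 0.38 to 0.51, with an adjusted p of at most 0.0414 (without SCR-6920 replicate 1).

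RPS27L, the ribosomal protein gene, changed most. It was at 70.5, 70.8 and 73.5 CPM in DMSO samples and at 158.3, 146.8 and 144.2 CPM in treated ones. Every treated sample was at least 1.96-fold above every control. The rise was 2.09-fold (log2 1.06 ± 0.04 SE, adjusted p = 1.13e-19, edgeR), ranking 257 among all rises.

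The order of the log2 changes was RPS27L, MDM2, PPM1D, CCNG1, MDM4. It fell into a pair near 2-fold and a trio between 1.27-fold and 1.38-fold. To ask which neighbours differed, the log2 ratio of 2 genes was taken within each sample and compared between groups for all 10 pairs. With 3 samples against 3 the exact two-sided permutation test cannot go below 0.1, so no pair could pass 0.05. Pairs at this floor had an adjusted p of 0.143 after Benjamini-Hochberg adjustment over the 10 pairs. RPS27L and MDM2 were not separated, with changes that differed by 0.08 ± 0.05 (combined SE, 95% interval -0.03 to 0.18) and sample ratios that overlapped. MDM2 and PPM1D differed by 0.53 ± 0.06, with no overlap (exact p = 0.1, adjusted 0.143). Each of the 6 pairs that cross from the pair to the trio was likewise free of overlap, at differences of 0.53 to 0.72. The pair and the trio were drawn from these same changes, so their separation is no independent evidence of the grouping. How often gene pairs in general are free of overlap was not tested. Within the trio, PPM1D and CCNG1 differed by 0.03 ± 0.09 (interval -0.15 to 0.21) and CCNG1 and MDM4 by 0.08 ± 0.09 (interval -0.09 to 0.26), both with overlap. PPM1D and MDM4 did not overlap, with a difference of 0.11 ± 0.06 (interval -0.00 to 0.23). The combined SE treats the genes of a pair as independent, although both are measured in the same libraries. The log2 ratio of PPM1D to MDM4 taken within samples was -0.59 ± 0.02 in DMSO and -0.48 ± 0.03 in treated samples (SD, n = 3). Without DMSO replicate 1, CCNG1 moved ahead of PPM1D.

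**Figure D3:**
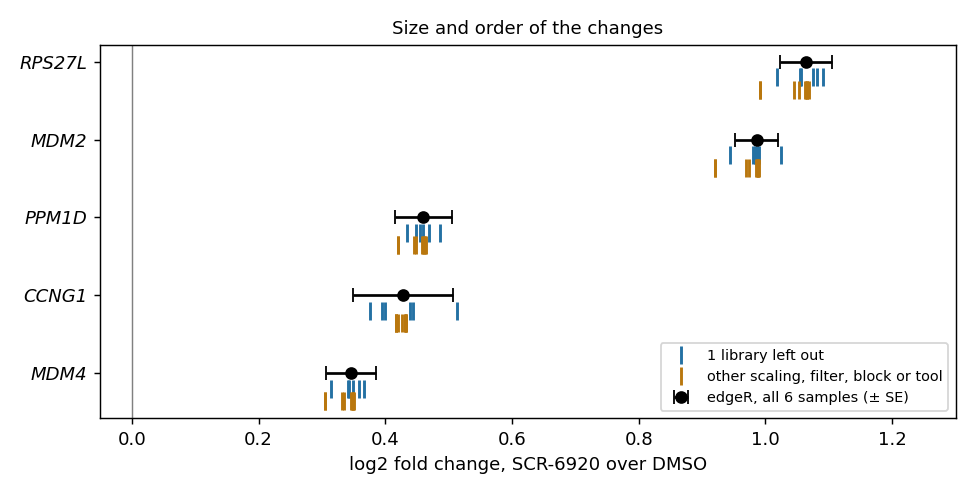
Log2 fold change of SCR-6920 over DMSO (horizontal axis) for each gene, with the edgeR estimate and its SE, blue marks for fits without 1 library and ochre marks for another scaling, filter, block or tool. RPS27L (1.06) and MDM2 (0.99) stand apart from PPM1D, CCNG1 and MDM4 (0.46, 0.43 and 0.35) under all of them.

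Levels of different genes were compared per length, as FPKM, which divides by gene length and depth, with the gene lengths in the deposited table. In DMSO samples CCNG1 was the most abundant of the 5 at 105.8 ± 10.6 FPKM (SD, n = 3), above 96.3% of tested genes. PPM1D at 12.7 ± 0.44, MDM2 at 12.2 ± 0.68 and RPS27L at 11.8 ± 0.26 FPKM came next. MDM2 overlapped both of its neighbours in this order, PPM1D lay above RPS27L in every sample, and MDM4 was lowest at 8.73 ± 0.32 FPKM. After SCR-6920 the level of CCNG1 was 141.3 ± 4.5 FPKM, RPS27L and MDM2 were level at 24.4 ± 1.2 and 24.1 ± 0.25 FPKM, PPM1D was at 17.4 ± 0.28 and MDM4 at 11.0 ± 0.12. MDM2 and RPS27L were thus near PPM1D in controls and above it in every treated sample. The 5 genes summed to 151.3 ± 11.3 FPKM in DMSO and 218.2 ± 5.6 in treated samples. CCNG1 was 69.9 ± 1.8% of that sum in DMSO and 64.8 ± 0.42% in treated samples, while MDM2 went from 8.10 ± 0.23% to 11.0 ± 0.34% and RPS27L from 7.81 ± 0.70% to 11.2 ± 0.26%. In FPKM added, CCNG1 came first with 35.4, ahead of RPS27L with 12.6, MDM2 with 11.8, PPM1D with 4.65 and MDM4 with 2.28.

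The level order, the shares of the sum and the order of the FPKM added all depend on which transcript length is used. The table's length is 12793 bases for MDM2, whereas its principal GENCODE transcript has 2523 bases. With that length MDM2 would be at 62.1 ± 3.4 FPKM in DMSO and 122.0 ± 1.3 in treated samples, well above PPM1D at 12.7 and 17.4. CCNG1 with its principal transcript would be at 106.3 and 141.9 FPKM, so MDM2 would come first in FPKM added. For MDM4, PPM1D, CCNG1 and RPS27L the transcript taken as principal is close to the table's length (10073, 4778, 2458 and 6434 bases against 10508, 4768, 2468 and 6110). In each of these genes it is also the longest coding transcript considered, so the closeness does not settle their levels. Which transcript was expressed was not tested. Each gene also has shorter coding transcripts, the shortest being 213 bases for MDM2, 481 for MDM4, 528 for RPS27L, 732 for CCNG1 and 1525 for PPM1D. With those lengths the DMSO levels would be 736, 191, 136.1, 357 and 39.9 FPKM in the same order, so MDM2 would be highest and PPM1D lowest. The fold changes within a gene do not use a length.

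Within a sample, the ratio of MDM2 to MDM4 is free of library scaling. Per length it was 1.46, 1.37 and 1.38 in DMSO and 2.20, 2.17 and 2.19 in treated samples. The ratio was higher in every treated sample, by 1.56-fold (log2 0.64, exact two-sided permutation p = 0.1, the smallest possible, or 0.15 over 3 ratios). The level of this ratio, unlike its shift, depends on the lengths above.

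The nearest paralogs of the other genes gave 2 contrasts. RPS27, the ubiquitous twin of RPS27L, had a log2 change of -0.07 ± 0.03 (adjusted p = 0.0252, edgeR), and the ratio of RPS27L to RPS27 was 0.0142 ± 0.00018 in DMSO and 0.0312 ± 0.0013 in treated samples, with no overlap (exact p = 0.1). In annotated transcripts 17.8% of the 50-base stretches of RPS27 also occur in other genes, against 2.19% for RPS27L, so the RPS27 count is uncertain. CCNG2, a cyclin G gene known as a FOXO target, rose by 0.35 ± 0.08 (adjusted p = 0.000436, edgeR), and the ratio of CCNG1 to CCNG2 overlapped between groups at 30.2 ± 3.3 and 32.1 ± 2.8 (exact p = 0.5). The log2 shift of that ratio was 0.09. The levels of both ratios, unlike their shifts, depend on the lengths used, such as 6110 bases for RPS27L and 584 for RPS27.

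**Figure D4:**
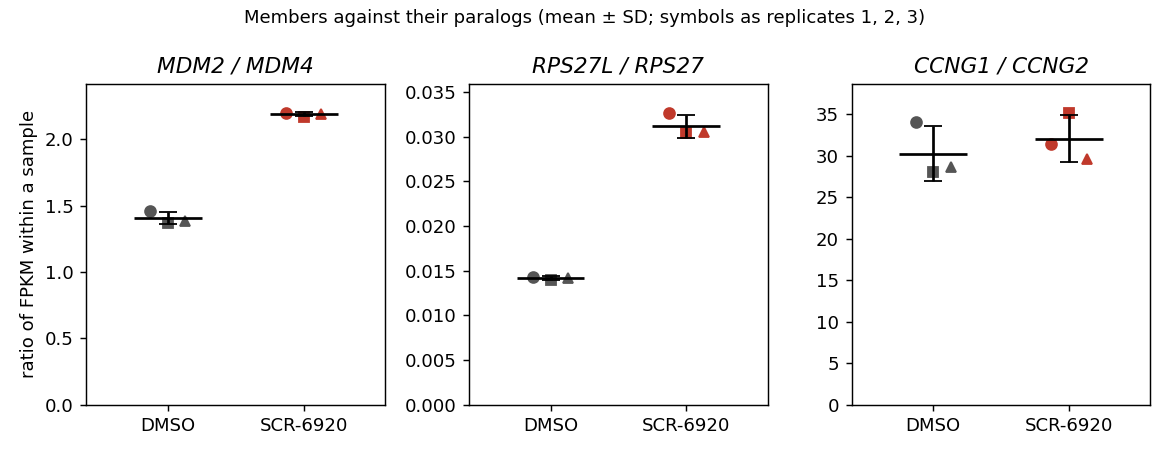
Ratio of FPKM within a sample (vertical axis, from 0) of MDM2 to MDM4, RPS27L to RPS27 and CCNG1 to CCNG2 in DMSO and SCR-6920 samples, with mean and SD (n = 3). The first 2 ratios do not overlap between groups (1.40 against 2.19, and 0.0142 against 0.0312), and the third does (30.2 against 32.1).

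Of 19 paralogs of the members that could be tested, 2 rose and 5 fell, or 36.8% called, near the 42.0% of all tested genes. Their median log2 change was -0.10, against 0.00 over all tested genes. Among PPM1 family phosphatases other than PPM1D, PPM1A rose by 0.16 ± 0.05, PPM1G fell by 0.26 ± 0.03 and PPM1L fell by 0.26 ± 0.10 (adjusted p = 0.0435, edgeR). PPM1B, PPM1E, PPM1F, PPM1H, PPM1J, PPM1K, PPM1M and PPM1N did not pass. Their values ran from -0.22 ± 0.29 for PPM1N to 0.88 ± 0.57 for PPM1J (SE). PPM1J was near the floor, at 0.188 ± 0.16 FPKM in DMSO samples (SD, n = 3). The related phosphatase genes PDP2 and ILKAP fell by 0.26 ± 0.07 and 0.20 ± 0.06. PPM1D, in comparison, rose by 0.46.

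**Figure D5:**
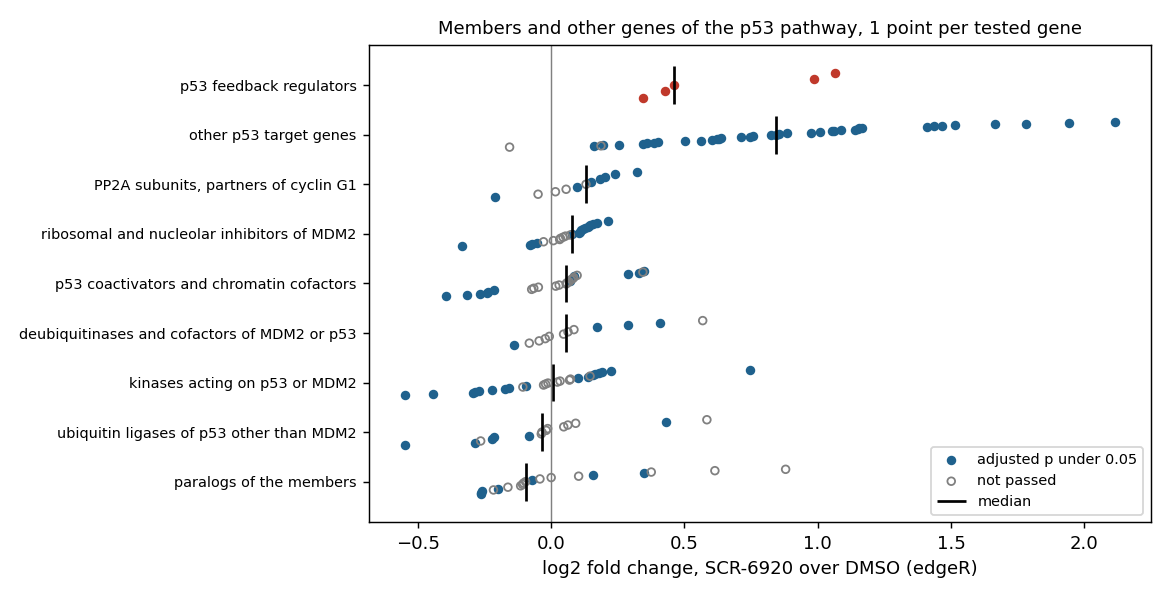
Log2 fold change of SCR-6920 over DMSO by edgeR (horizontal axis) for the 5 genes and the tested genes of 8 lists, with filled points for an adjusted p under 0.05 and a bar at each median. The list of other p53 targets has its median at 0.84 and the remaining lists between -0.10 and 0.13.

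Other p53 target genes moved with the 5. Of 39 tested, 37 rose and none fell, against 20.6% of all tested genes that rose, with a median log2 change of 0.84. The cell cycle inhibitor gene CDKN1A rose by 1.67 ± 0.03, BTG2 by 1.94 ± 0.04 and GDF15 by 2.12 ± 0.07. In this list 16 genes had a larger log2 change than MDM2 and 33 a larger one than MDM4, so the feedback genes were not at its top. PMAIP1 and KITLG did not pass, at 0.19 ± 0.30 and -0.16 ± 0.08. The list was chosen with results of these data known.

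Among ubiquitin ligases of p53 other than MDM2, 1 of 15 tested rose and 5 fell, with a median of -0.03. That is 40% called, near the 42.0% of all tested genes. MKRN1, which targets both p53 and p21, rose by 0.43 ± 0.05. STUB1, the chaperone-linked ligase CHIP, fell by 0.55 ± 0.06, HUWE1 by 0.21 ± 0.03 and the ubiquitin chain elongation factor gene UBE4B by 0.22 ± 0.04. Of 12 tested deubiquitinases and cofactors, 3 rose and 1 fell, or 33.3% called against 42.0%, with a median of 0.06. USP4, OTUD5 and USP5 rose by 0.41 ± 0.07, 0.29 ± 0.05 and 0.17 ± 0.03, and USP10, which stabilises p53, fell by 0.14 ± 0.03. USP7, the deubiquitinase that stabilises MDM2 and MDM4, had a log2 change of -0.02 ± 0.03 (adjusted p = 0.6, edgeR).

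Genes of ribosomal and nucleolar proteins linked to MDM2 changed little. Whether each product binds or inhibits MDM2, that of NOP53 included, was not tested. Of 23 tested, 12 rose and 4 fell, or 69.6% called against 42.0% of all tested genes, with a median of 0.08. The largest rise was in NOP53, by 0.21 ± 0.03, and RPL37 and RPL4 rose by 0.17 ± 0.03 and 0.15 ± 0.02. GNL3, which encodes nucleostemin, fell by 0.34 ± 0.04 and the nucleolin gene NCL by 0.08 ± 0.02. NCL passed at this small change with a mean of 2190 CPM in DMSO samples (adjusted p = 0.00403, edgeR). Whether high counts raised the share called was not tested. RPL5 and RPL11, the best known ribosomal inhibitors of MDM2, rose by 0.12 ± 0.02 and 0.14 ± 0.03. No gene of the list had a change as large as that of MDM4, and RPS27L rose by 1.06.

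PP2A subunits, the partners of cyclin G1, rose in 6 of 11 tested cases and fell in 1, with a median of 0.13. That is 63.6% called against 42.0% of all tested genes, of which 20.6% rose. The regulatory subunit genes PPP2R5D and PPP2R5E rose by 0.32 ± 0.04 and 0.20 ± 0.04 and the catalytic subunit gene PPP2CB by 0.24 ± 0.04, while PPP2R5A fell by 0.21 ± 0.04. PPP2R5C, whose product is known to dephosphorylate p53, had a log2 change of -0.05 ± 0.04 (adjusted p = 0.395, edgeR).

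Kinases that act on p53 or MDM2 went both ways. Of 26 tested, 8 rose and 9 fell, or 65.4% called against 42.0% of all tested genes, with a median of 0.01. PLK3 rose by 0.75 ± 0.12, CSNK1A1 by 0.23 ± 0.03 and CSNK2A1 by 0.18 ± 0.03. The DNA-dependent protein kinase gene PRKDC fell by 0.27 ± 0.02, the checkpoint kinase gene CHEK1 by 0.44 ± 0.05 and PLK1 by 0.28 ± 0.03. Of 24 coactivators and chromatin cofactors of p53, 5 rose and 6 fell, or 45.8% called, near the 42.0% of all tested genes, with a median of 0.06. PML, JMY and ZNF385A rose by 0.35 ± 0.06, 0.33 ± 0.07 and 0.29 ± 0.05, and the methyltransferase genes EHMT2 and PRMT1 and the bromodomain gene BRD7 fell by 0.39 ± 0.04, 0.26 ± 0.03 and 0.24 ± 0.04. The drug target PRMT5 had a log2 change of 0.02 ± 0.03 (adjusted p = 0.705, edgeR).

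The genes most like each member were found among 9969 other genes that code for protein and average 5 CPM or more, by the root mean square difference of the 6 centred log2 CPM values. For MDM2 they were PTBP2, MVP and DHRS3, at 0.0429, 0.0517 and 0.0577 log2 units. RPS27L was nearest to TNFRSF10D at 0.0491, then to ZNF224 and PRPF3 at 0.0593 and 0.0624. PPM1D was nearest to STAT3 at 0.0109, then TTYH3 and CLCC1 at 0.0165 and 0.0170. MDM4 was nearest to RNF19B, RAB1A and ZNF467, at 0.0165, 0.0187 and 0.0204. CCNG1 was nearest to PTP4A1, ITGAV and UFM1, at 0.0259, 0.0262 and 0.0297.

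Counts of 4 of the 5 genes are little exposed to other loci. MDM2 is the exception, with 10.4% of its annotated 50-base stretches found in transcripts of other genes, against 1.13% for MDM4, 0.198% for PPM1D, 2.19% for RPS27L and none of 3364 for CCNG1. MDM2 exons overlap the opposite-strand gene CPM, which had a mean of 79.7 counts in DMSO and 66 in treated samples, far below those of MDM2. They also overlap 2 annotated loci, 1 on each strand, that have no row of their own in the table. The sources used here do not state whether counting used strand, so reads of these loci cannot be told apart from those of MDM2.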

How the data were processed

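The series holds 6 RNA-seq samples, grouped by their titles. Per the labels' protocols, RNA came from a Qiagen RNeasy kit and libraries from an Illumina stranded mRNA kit. HISAT2 and HTSeq are named per the submitters' processing notes, with GRCm38, a mouse build, although the symbols are human. The sources used here give no versions, annotation or strand setting. The authors deposited raw counts per gene and FPKM values. The deposited FPKM equal the count over the sample total and 1 gene length for all 21442 genes with a value above 0 (relative tolerance 1e-06). Chi-square per gene between replicates was 3.74 to 9.25, so none repeats another library.

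Counts were fitted in R 4.3.3 with edgeR 4.0.16: filterByExpr, TMM scaling, robust quasi-likelihood, group as the only term, Benjamini-Hochberg adjustment over 14233 genes, threshold 0.05. The SE comes from the log2 change and its F statistic. Of 24054 genes, 2612 had no count. The scripts were tested on simulated data. Sequences are RefSeq's (GRCh38.p14) and transcript models GENCODE 29 (GRCh38); no coordinates come from the deposited files. Alternatives used RLE factors, library size only, no filter, a stricter one (at least 1 CPM on average, and 10 counts in 3 samples), the replicate block, left-out libraries, DESeq2 1.42.0, limma 3.58.1 on log2(FPKM + 1) or log2(FPKM + 0.1) where FPKM averaged 0.5 or more, unfiltered limma, and an adjusted p under 0.01.

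Members and lists were chosen with earlier results of these data known. Named genes are the members; up to 3 genes each way with the smallest p per list; CCNG2, RPS27 and the PPM1 family; and the 3 genes most like each member. USP7, RPL5, RPL11, PPP2R5C, PRMT5, PMAIP1 and KITLG were chosen after their values were seen, as were the ratios of RPS27L to RPS27 and CCNG1 to CCNG2. Intervals of differences are 95% normal intervals from the combined SE, leave out the covariance of genes within a library and cover the spread between these samples only.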

Additional observations from a re-analysis of the deposited data

How the results depend on the processing

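Under 15 other settings each member kept its rise at an adjusted p under 0.05, with log2 changes of 0.92 to 1.02 for MDM2, 0.30 to 0.37 for MDM4, 0.42 to 0.49 for PPM1D, 0.38 to 0.51 for CCNG1 and 0.99 to 1.09 for RPS27L. The largest adjusted p was 0.0414, for CCNG1 without SCR-6920 replicate 1. At a threshold of 0.01, 4 members were called, CCNG1 (0.0102) not among them. The order of the 5 was the same in every fit but the one without DMSO replicate 1, where 9 of 10 pairs kept it (9 to 10 over the left-out libraries); the cause was not tested. The adjusted p of CCNG1 ran from 1.03e-28 without the low-count filter to 0.0414; the cause was not tested. The MDM2 to MDM4 shift stayed between 0.62 and 0.67 without 1 library. Between 4538 genes (adjusted p under 0.01) and 6144 (replicate block) changed, within 1.5 times of 5976.

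List counts, tried under other settings after seeing the data, moved by over 1.5 times in these cases. Of the ribosomal and nucleolar genes, 2 fell without the low-count filter and at the 0.01 threshold, 1 by limma without its filter, and 1 to 4 without 1 library. Of paralogs, 3 fell without the low-count filter, by unfiltered limma and at 0.01, and 1 rose by each limma fit. Of kinases, 5 rose by each limma fit. Of coactivators, 3 rose by unfiltered limma and at 0.01. Without 1 library, 1 to 3 paralogs, 3 to 6 coactivators and 1 to 2 ubiquitin ligases rose. The left-out libraries behind these moves were DMSO replicate 2 and SCR-6920 replicate 3 for the ribosomal and nucleolar genes (1 and 2 fell), SCR-6920 replicate 1 for paralogs and coactivators (1 and 3 rose), and SCR-6920 replicate 3 for ubiquitin ligases (2 rose). The causes were not tested.

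The labels do not say whether samples with the same replicate number were paired. Their deviations correlated at 0.00663, 0.00497 and 0.0383. These values give no sign of pairing across genes but cannot exclude a shared effect on single genes. With the replicate block the members' changes were 0.99 for MDM2, 0.35 for MDM4, 0.46 for PPM1D, 0.43 for CCNG1 and 1.06 for RPS27L, all called. CCNG1 was highest in replicate 1 of both groups, at 289.6 CPM in DMSO and 364.2 in SCR-6920. No other member was highest at the same number in both groups. The block took the adjusted p of CCNG1 from 0.0102 to 8.35e-14 (edgeR), and the cause was not tested. Gene counts cannot separate MDM4 isoforms.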
